A study of Mus musculus with 2 samples.

Results

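The genes described here encode the enzymes of glycolysis, with every isozyme choice listed for a step, the enzymes that set fructose-2,6-bisphosphate, and the main carriers for glucose and lactate. There are 33 of them among the 43346 genes with an Ensembl identifier in the gene tables. They were chosen by symbol, with earlier results of these data known. All 33 were found in both tables. They were measured by single-end sequencing of polyadenylated RNA in G1E-ER4, an immortalized mouse line that the labels call male and erythroid with Gata1 restored. G1E-ER4 is a subline of G1E, which lacks Gata1, and it carries GATA-1 fused to the hormone-binding domain of the oestrogen receptor, so that hormone activates the factor. The promoter of the fusion gene is not given in the sources used here. The cells of both libraries had been kept in 10 nM 17beta-estradiol for 24 hours. The libraries are biological replicates 1 and 2 of 1 group. No untreated library was analysed here, so each value describes the induced state, no level can be read as a change, and no p-value is given. No source used here says whether the replicates were separate cultures.

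Glycolysis splits glucose into pyruvate and yields ATP and NADH. Hexokinase, phosphofructokinase and pyruvate kinase catalyse its hardly reversible steps. Many steps have several isozymes that are encoded by different genes and are used by different tissues, such as muscle, liver, brain and testis. Mature red cells have no mitochondria, so they make their ATP by glycolysis and export lactate. They also divert 1,3-bisphosphoglycerate through bisphosphoglycerate mutase into 2,3-bisphosphoglycerate, which lowers the oxygen affinity of haemoglobin. Red cells use their own forms of pyruvate kinase and hexokinase, which start from separate first exons of Pklr and Hk1.

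The libraries held 20412826 and 18564086 expected counts, which are read counts shared out among the places a read fits. Levels are in TPM, a unit that divides counts by the effective length of the transcripts, so that levels of different genes can be set side by side. For a gene listed without reads the floor is 3 counts, or 0.147 CPM (counts scaled to the library total) in replicate 1 and 0.162 CPM in replicate 2, which covers counting error only. Of 10 listed erythroid markers 9 were matched, all but Ahsp, and these 9 were detected. Among them was Gata1, whose reads cannot be told apart from those of the introduced fusion gene, so its detection does not mark the cell type. The 9 had a summed level of 109856 TPM in replicate 1 and 126969 in replicate 2. Most of it was globin, with Hbb-bs at 61175 and 69726 TPM and Hba-a2 at 35824 and 42224 TPM. Of 10 markers of other cell types 0 were detected, with summed levels of 1.05 and 0.93 TPM, and 3 of them had 0 counts in both libraries. In cultures measured in bulk, fewer cells that express a gene and less RNA per cell cannot be told apart.

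Of the 33 genes, 27 were detected, meaning 1 TPM or more in both libraries. Among 21461 nuclear protein-coding genes the detected share was 41.2%. A mean of 100 TPM or more was reached by 16 of the 33, beside 5.75% of nuclear protein-coding genes. A mean of 1000 TPM was reached by 7 (Gpi1, Aldoa, Tpi1, Gapdh, Eno1, Pkm and Ldha). The share of all genes at 1000 TPM was not computed. By mean TPM these 7 ranked from 11 (Aldoa) to 78 (Eno1) among the 21461 nuclear protein-coding genes. The median of the 33 was 47.4 TPM in replicate 1 and 56.9 in replicate 2, beside 0.08 TPM over all nuclear protein-coding genes in each. Counting detected genes alone, the median was 233 and 253 TPM for the glycolytic genes, beside 21.1 and 20.3 TPM for nuclear protein-coding genes. The 33 genes together held 2.19% ± 0.0947 (SD, n = 2) of all TPM and 2.76% ± 0.138 of all expected counts. The 6 that were not detected were Hk3, Pgk2, Ldhb, Ldhc and Pfkfb3, each with 0 counts in both libraries, and Eno2, with 1 count in each. The levels ran over more than 3 orders of magnitude within the detected set, and for most steps a single isozyme held nearly the whole level, as the plot of all 33 genes shows.

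**Figure D1:**
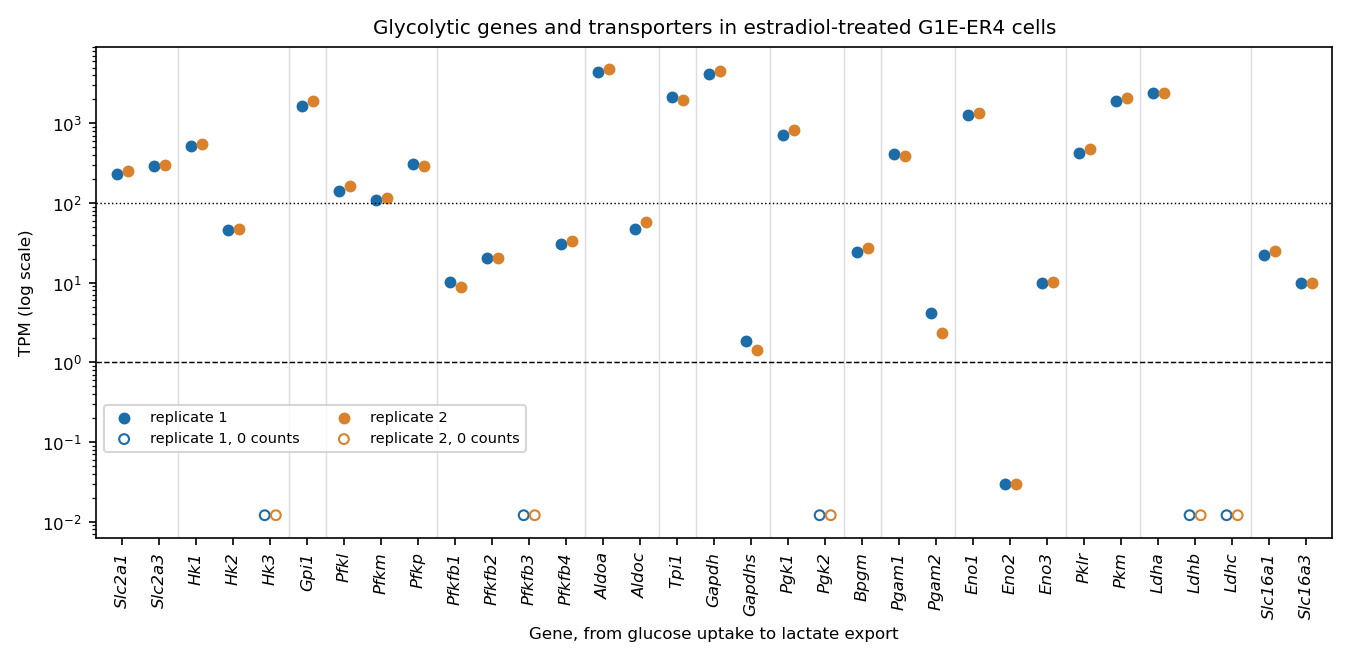
TPM of each gene in replicate 1 and replicate 2 on a log axis, ordered from glucose uptake to lactate export, with grey lines between steps. Open circles at the bottom mark the 5 genes with 0 counts, which have no place on a log axis, the dashed line is the detection limit of 1 TPM and the dotted line is 100 TPM. The points of the 2 libraries lie close together, with the widest gap for Pgam2 among the detected genes, and 16 genes lie above the dotted line.

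Glucose enters cells through facilitative carriers of the SLC2A family. Slc2a1, on chromosome 4 from 119108711 to 119137983, encodes the widely used carrier GLUT1 and stood at 233 TPM in replicate 1 and 253 TPM in replicate 2. Slc2a3, which encodes the high-affinity carrier GLUT3 known mainly from neurons, stood at 288 and 302 TPM. Slc2a3 was therefore the higher of the 2 carriers in each library, with a log2 ratio of Slc2a1 over Slc2a3 of -0.28 ± 0.04 (SD, n = 2). The 2 genes do not overlap over the libraries, but the gap is small and depends on the division by length: from expected counts alone the log2 ratio was -0.91. Slc2a1-201 held 97.5% and 98.3% of the Slc2a1 level, and Slc2a3-201 held 95.6% and 95.3% of the Slc2a3 level. Of 8 other glucose and fructose carriers, 1 was detected, Slc2a8 at 8.56 and 9.28 TPM. The liver carrier gene Slc2a2 had 1 and 3 counts, the insulin-responsive Slc2a4 had 7 and 3 counts, and Slc2a5 and Slc2a10 had 0 counts in both libraries.

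Hexokinase phosphorylates glucose and so traps it in the cell. Hk1, which encodes the broadly used isozyme, stood at 516 TPM in replicate 1 and 546 TPM in replicate 2. Hk2, the isozyme known from muscle, fat and many growing cells, stood at 45.1 and 47.6 TPM. Hk1 exceeded Hk2 by 3.52 ± 0.00 on the log2 scale (SD, n = 2), which is 11.5-fold, and Hk1 held 92.0% of the hexokinase level in each library. Hk3, which is known from myeloid cells, had 0 counts, so that Hk1 was at least 5650-fold higher in replicate 1 and at least 5442-fold higher in replicate 2 against a floor of 3 counts per library. Hkdc1, a hexokinase relative, also had 0 counts in both libraries. Adpgk, which encodes an ADP-dependent glucokinase, was detected at 14.9 and 14.3 TPM.

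Hk1 lies on chromosome 10 from 62268855 to 62379908 on the minus strand (GRCm38, as are all positions here), and its transcripts begin at several first exons along that stretch. The somatic form of the enzyme has an N-terminal stretch that docks it on mitochondria, and forms that start elsewhere lack it. The coding parts of the first coding exons of 4 transcripts are printed here because they are what tells these forms apart. Which of the 4 is the somatic form and which the red cell form was not determined here. They come from the GENCODE M21 transcripts of GRCm38, 5′ to 3′, with the start codon in capitals.
Hk1-201: ATGggacagaactgccagcgaggacag
Hk1-205: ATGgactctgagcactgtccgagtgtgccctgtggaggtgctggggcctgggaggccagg
Hk1-202: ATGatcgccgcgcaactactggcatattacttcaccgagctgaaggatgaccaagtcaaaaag
Hk1-212: ATGgcatgtcctgtgcagaag
In genome order, these exons lie at chr10:62358336-62358362 for Hk1-201, chr10:62342501-62342560 for Hk1-205, chr10:62340013-62340075 for Hk1-202 and chr10:62327403-62327423 for Hk1-212. Hk1-205 starts 2180 bases upstream of Hk1-202 and codes for 917 amino acids, beside 918 for Hk1-202.

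Hk1-201 was assigned 54.0% of the Hk1 level in replicate 1 and 52.4% in replicate 2. Hk1-202 was assigned 21.1% and 24.0%. Hk1-212, a partial transcript of 896 bases, was assigned 18.8% and 19.1%. These shares are of unequal weight. Hk1-201 has 0 of its 3604 windows of 36 bases, the length of the reads, in no other Hk1 transcript, whereas Hk1-202 has 774 such windows and Hk1-212 has 362. In expected counts, Hk1-212 held 1337 and 1314 of the 25171 and 24709 counts of the gene, and its larger share of TPM rests on its short length. The 3 transcripts that begin in the first exon of Hk1-205 together held 293 and 212 counts, or 6.01% and 4.46% of the Hk1 level. Hk1-205 itself, the transcript among them with a complete coding sequence, held 111 and 84.9 counts, which is 0.47% and 0.37% of the level. The division of Hk1 among transcripts was thus repeated in both libraries. It does not by itself show which first exon was used, since Hk1-202 ends 253 bases past Hk1-201 and 249 of its 774 private windows lie in its 3′ part. Hk1-205 has 14 private windows, and its last exon has 148 bases, beside 949 in Hk1-201 and 1202 in Hk1-202. Reads from the longer 3′ ends cannot go to Hk1-205, whatever the first exon was. The low counts of Hk1-205 therefore do not show how much its first exon was used.

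Gpi1, the phosphoglucose isomerase gene, has no second isozyme. It stood at 1642 TPM in replicate 1 and 1904 in replicate 2, and Gpi1-201 held 98.9% and 99.3% of it. Glucose-6-phosphatase undoes the hexokinase step. Its liver gene G6pc had 0 counts, while the broadly expressed G6pc3 stood at 12.8 and 12.7 TPM.

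Phosphofructokinase is a tetramer that can mix subunits from 3 genes, named for liver (Pfkl), muscle (Pfkm) and platelet (Pfkp). All 3 passed 100 TPM. Pfkl stood at 142 TPM in replicate 1 and 161 in replicate 2, Pfkm at 108 and 114, and Pfkp at 311 and 290. No subunit stood apart as the main isozymes of other steps did, since Pfkp held 53.3% ± 2.89, Pfkl 27.0% ± 2.25 and Pfkm 19.7% ± 0.649 of the summed level (SD, n = 2). Pfkl exceeded Pfkm by 0.45 ± 0.07 on the log2 scale, and the log2 ratio of Pfkl over Pfkp was -0.99 ± 0.20.

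The lead of Pfkp is uncertain. Of its level, 42.0% in replicate 1 and 44.95% in replicate 2 lay on transcripts not classed as protein-coding, chiefly Pfkp-203 of 702 bases, which held 27.4% and 30.1%. With coding transcripts alone, Pfkp stood at 180 and 159 TPM and Pfkl at 140 and 160 TPM, so the 2 genes no longer kept the same order in both libraries and their log2 ratio was -0.18. Pfkp also overlaps Pitrm1 on the opposite strand, with 713 windows of 36 bases in common, and Pitrm1 held 9302 and 9015 counts beside 11072 and 9613 for Pfkp. The sources used here do not say whether counting used strand, so reads from the overlap cannot be told apart. Pfkm-201 held 81.9% and 85.4% of Pfkm, and Pfkl-201 held 97.5% and 93.4% of Pfkl.

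Fructose-2,6-bisphosphate activates phosphofructokinase, and 4 genes encode the bifunctional enzymes that make and remove it. Their levels were low beside the glycolytic enzymes. Pfkfb4 stood at 30.4 TPM in replicate 1 and 33.7 TPM in replicate 2, Pfkfb2 at 20.2 and 20.3 TPM, and Pfkfb1 at 10.2 and 8.85 TPM. Pfkfb3, which encodes the form with the highest kinase activity relative to phosphatase and is widely induced by low oxygen, had 0 counts in both libraries. Against 3 counts per library, Pfkfb4 was at least 354-fold and at least 358-fold higher than Pfkfb3 in the respective libraries, a log2 ratio of Pfkfb3 over Pfkfb4 of -8.47 at most. That ratio was -4.76 with posterior mean TPM, which gives genes without a read a value above 0. It was -3.05 when the TPM of genes that share any 36-base sequence was added in proportion to the shared part. Of the 36-base sequences of Pfkfb3, 99.5% occur in no other gene, so the value does not show expressed copies. Pfkfb2 exceeded Pfkfb1 by 1.10 ± 0.15 on the log2 scale, but by 0.34 with coding transcripts alone. Transcripts not classed as protein-coding, led by Pfkfb2-206, held 54.3% and 58.9% of the Pfkfb2 level. Tigar, which encodes a phosphatase that lowers fructose-2,6-bisphosphate, was not detected, at 0.12 and 0.11 TPM.

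Aldolase cleaves fructose-1,6-bisphosphate. Aldoa, the muscle and red cell isozyme, was the most abundant of the 33 genes, at 4419 TPM in replicate 1 and 4765 TPM in replicate 2, and ranked 11 among nuclear protein-coding genes. It lies on chromosome 7 from 126795234 to 126800751. Aldoc, the brain isozyme, stood at 47.4 and 56.9 TPM. Aldoa exceeded Aldoc by 6.47 ± 0.11 on the log2 scale (SD, n = 2), or 88.4-fold. With coding transcripts alone the difference was 7.65, since Aldoc-206, a transcript of 706 bases without coding annotation, held 51.2% and 49.6% of Aldoc. Aldoa-201 held 87.7% and 87.2% of Aldoa. Tpi1, the triosephosphate isomerase gene, stood at 2153 and 1948 TPM. Its coding transcript Tpi1-205 held 79.7% in replicate 1 and 95.7% in replicate 2. The short transcripts Tpi1-202, Tpi1-203 and Tpi1-204 held more of the level in replicate 1, at 8.08%, 5.04% and 7.14%, than in replicate 2, at 0.53%, 2.47% and 1.28%.

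Glyceraldehyde-3-phosphate dehydrogenase makes the NADH of glycolysis, and its gene Gapdh is often taken as a reference gene. Gapdh stood at 4158 TPM in replicate 1 and 4600 in replicate 2, which ranked it 13 among nuclear protein-coding genes. It lies on chromosome 6 from 125161715 to 125166467. Gapdhs, the isozyme of sperm, was listed at 1.84 and 1.44 TPM, with 39.1 and 26.5 expected counts. The log2 ratio of Gapdh over Gapdhs was 11.39 ± 0.35 (SD, n = 2), and 10.15 with coding transcripts alone.

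The Gapdh value depends more than others on how the gene's counts were shared among its 13 transcripts. The 3 transcripts with a complete coding sequence held 5765 of 35491 counts in replicate 1 and 6657 of 36231 in replicate 2. In TPM that was 6.85% and 7.81% of the gene. Gapdh-206, a retained-intron transcript of 565 bases of which 480 are the last 480 bases of the coding transcript Gapdh-201, held 36.3% and 34.9% of the level. Gapdh-207 of 471 bases held 32.7% and 30.3%, and Gapdh-208 of 483 bases held 23.7% and 26.8%. Gapdh-206 has 0 windows of 36 bases that no other Gapdh transcript has, Gapdh-207 has 33 and Gapdh-208 has 31. Short transcripts give a higher TPM for the same counts. When the counts of the gene were instead divided by the effective length of its longest complete coding transcript, of 1420 bases, Gapdh stood at 1597 TPM in replicate 1 and 1790 TPM in replicate 2. This second scale, the reference length, was added after the values had been seen and was applied to all 33 genes.

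Phosphoglycerate kinase makes the first ATP that glycolysis gains. Pgk1, the X-linked broadly expressed gene, stood at 704 TPM in replicate 1 and 831 TPM in replicate 2. Pgk2, a retroposed copy used in sperm formation, had 0 counts, so Pgk1 was at least 5862-fold and at least 6300-fold higher in the respective libraries. Pgk1 had the widest replicate gap of the genes tested for it, 1.20-fold after scaling. Beside it lay a shift between transcripts and copies. Pgk1-203, annotated for nonsense-mediated decay, held 6320 counts in replicate 1 but 0 in the other library, with a deposited posterior SD of 655 and 260 counts. The processed pseudogene Pgk1-rs7, of whose windows of 36 bases 100% also occur in Pgk1, held 8861 counts in replicate 1 and 3686 in replicate 2. Of the distinct 36-base sequences of Pgk1 itself, 45.5% occur in no other gene, the lowest share among the 33. With the 2 listed copies added, Pgk1 held 28857 and 25410 counts, so that replicate 1, not replicate 2, had the more counts, with no correction for depth. The part of these assignments in the Pgk1 gap was not tested.

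Bisphosphoglycerate mutase opens the side path to 2,3-bisphosphoglycerate. Its gene Bpgm, on chromosome 6 from 34476207 to 34505613, stood at 24.3 TPM in replicate 1 and 27.6 TPM in replicate 2, with 688 and 651 counts, and Bpgm-201 held 73.2% and 63.9% of the level. The enzyme of the main path, phosphoglycerate mutase, was represented by Pgam1 at 412 and 391 TPM. Pgam1 exceeded Bpgm by 3.95 ± 0.18 on the log2 scale (SD, n = 2), which is 15.5-fold. Of the 15 steps and functions, bisphosphoglycerate mutase had the lowest level. Minpp1, which encodes a phosphatase able to remove 2,3-bisphosphoglycerate, stood at 50.4 and 52.9 TPM, above Bpgm in each library. Pgam2, the muscle isozyme of phosphoglycerate mutase, had 53 and 27 counts, or 4.10 and 2.30 TPM. Pgam1-ps2, a processed pseudogene wholly contained in the sequence of Pgam1, took 1008 counts in replicate 1 and 2032 in replicate 2, while Pgam1 held 11870 and 10250.

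Enolase turns 2-phosphoglycerate into phosphoenolpyruvate. Eno1, the ubiquitous isozyme gene, stood at 1281 TPM in replicate 1 and 1345 TPM in replicate 2. Eno3, the muscle isozyme, stood at 9.89 and 10.3 TPM, and the log2 ratio of Eno1 over Eno3 was 7.03 ± 0.01 (SD, n = 2). Eno2, the neuronal isozyme, had a single count in each library, so that Eno1 was 42710-fold higher in replicate 1, with an exact 95% counting interval from 8674 to 1909012. In replicate 2 the ratio was 44835, with an interval from 8294 to 1825392. Eno1b, an annotated protein-coding gene elsewhere in the genome that has 80.4% of its 36-base windows in common with Eno1, was listed at 24452 and 24648 counts, or 885 and 979 TPM. Eno1 and the 3 genes like it held 65267 and 63681 counts together, of which 37.5% and 38.7% were assigned outside Eno1. The division between Eno1 and Eno1b is therefore an estimate, repeated in both libraries. The plot of counts for Eno1, Pgk1, Pgam1 and Gapdh sets these assignments side by side.

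**Figure D2:**
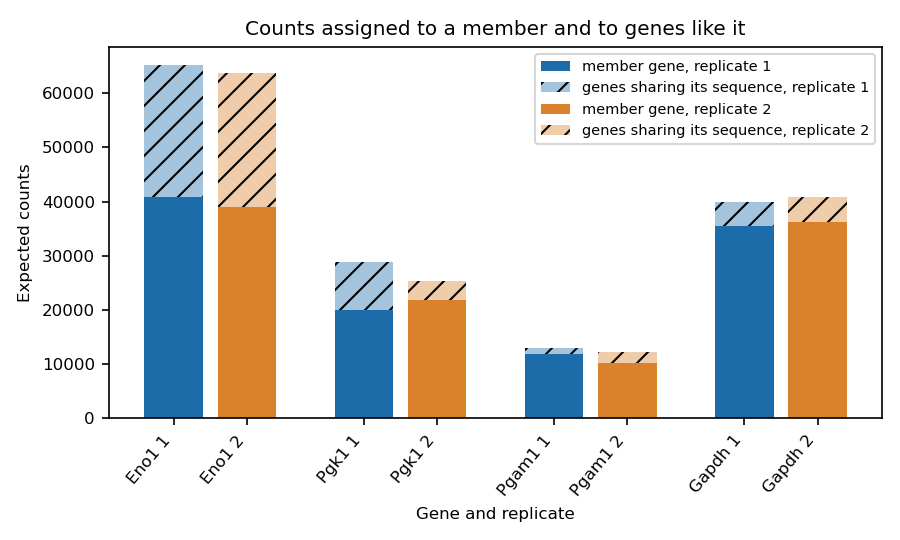
Expected counts assigned to 4 genes (solid) and to other genes that have at least 10% of their 36-base windows in common with them (hatched), in replicate 1 and replicate 2. For Eno1 the hatched part is 37.5% and 38.7% of the bar, and for Pgk1 it falls from 30.7% in replicate 1 to 14.5% in replicate 2 while the solid part is higher in replicate 2.

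Pyruvate kinase makes the second ATP gain and ends the pathway proper. Pkm, which encodes the M1 and M2 forms, stood at 1890 TPM in replicate 1 and 2083 TPM in replicate 2. Pklr, which encodes the red cell (R) and liver (L) forms, stood at 423 and 470 TPM. Pkm exceeded Pklr by 2.16 ± 0.01 on the log2 scale (SD, n = 2), or 4.45-fold, and held 81.7% and 81.6% of the pyruvate kinase level. Pkm lies on chromosome 9 from 59656368 to 59679375. So both genes were well above 100 TPM, with Pkm the higher in each library.

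The M1 and M2 forms differ by a pair of mutually exclusive exons of equal length. Their sequences are shown because they are the only coding difference between the forms. Each has 167 bases and lies wholly in the coding sequence, at chr9:59675029-59675195 for Pkm-202 and chr9:59675568-59675734 for Pkm-201, plus strand. Both transcripts code for 531 amino acids. They are printed from the GENCODE M21 transcripts, 5′ to 3′, with the 64 positions that differ in capitals.
Pkm-202: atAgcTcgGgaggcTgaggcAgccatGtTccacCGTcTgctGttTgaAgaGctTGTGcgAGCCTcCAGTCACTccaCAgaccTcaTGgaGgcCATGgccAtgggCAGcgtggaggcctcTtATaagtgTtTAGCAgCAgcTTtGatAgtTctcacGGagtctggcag
Pkm-201: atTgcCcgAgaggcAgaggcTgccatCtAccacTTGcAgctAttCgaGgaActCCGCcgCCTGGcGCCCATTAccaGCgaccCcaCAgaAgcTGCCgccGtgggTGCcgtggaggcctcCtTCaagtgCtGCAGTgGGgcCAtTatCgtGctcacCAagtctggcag
The exons are 61.7% identical. The upstream exon is that of M1, the form of muscle and brain, and the downstream exon is that of M2, the form of growing cells and of many tissues. Pkm-201, with the M2 exon, held 79.7% of Pkm in replicate 1 and 79.2% in replicate 2, as 57958 and 57827 counts. Pkm-202, with the M1 exon, held 20.3% and 20.8%, as 14748 and 15145 counts. The deposited posterior SD of these counts was 473 and 421. At the level of TPM, the M1 transcript of Pkm alone, at 383 and 432 TPM, was close to the whole of Pklr. Both transcripts have a deposited length of 2432 bases, while M21 gives Pkm-202 a length of 2041, so the ends of the transcript differ between the annotation used for counting and the one used here for sequence. In M21 Pkm-201 has 581 private windows of 36 bases in 3 runs, 205 of them in its 5′ part, so there reads at its ends also count for it, whichever exon the molecule held. The private windows of the annotation used for counting were not analysed here.

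Pklr lies on chromosome 3 from 89136142 to 89146784 on the plus strand. Its R form begins at an upstream first exon and its L form at a downstream first exon within the first intron of the other. The coding parts of these exons are printed because they are the only coding difference between the forms, with the start codon in capitals.
Pklr-201: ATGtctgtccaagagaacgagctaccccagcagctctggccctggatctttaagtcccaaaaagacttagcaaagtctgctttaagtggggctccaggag
Pklr-202: ATGgaag
They lie at chr3:89136183-89136282 for Pklr-201, the R type of 574 amino acids, and at chr3:89136631-89136637 for Pklr-202, the L type of 543 amino acids. Pklr-202 held 65.5% of the Pklr level in replicate 1 and 65.7% in replicate 2, while Pklr-201 held 15.04% and 9.05%. Pklr-205, of 345 bases and without coding annotation, begins in the R exon as well and held 17.3% and 20.9%. Transcripts that begin in the R exon thus summed to 32.4% and 30.0%, and those that begin in the L exon to 67.6% and 70.0%. In counts the R exon group held 3171 and 2156, and the L exon group 12767 and 13020.

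This division does not by itself show which first exon the cells used. Pklr-202 also ends 190 bases past the end of Pklr-201, and 190 of its 235 private windows of 36 bases lie in that 3′ part, against 45 in its 5′ part. Pklr-201 has 32 private windows, all in its 5′ part. Reads from the longer 3′ end therefore go to the transcript that also carries the L exon, whatever its first exon was. Reads per first exon were not analysed here. Pklr further overlaps Hcn3 on the opposite strand, with 676 windows in common, and Hcn3 held 1105 and 750 counts.

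**Figure D3:**
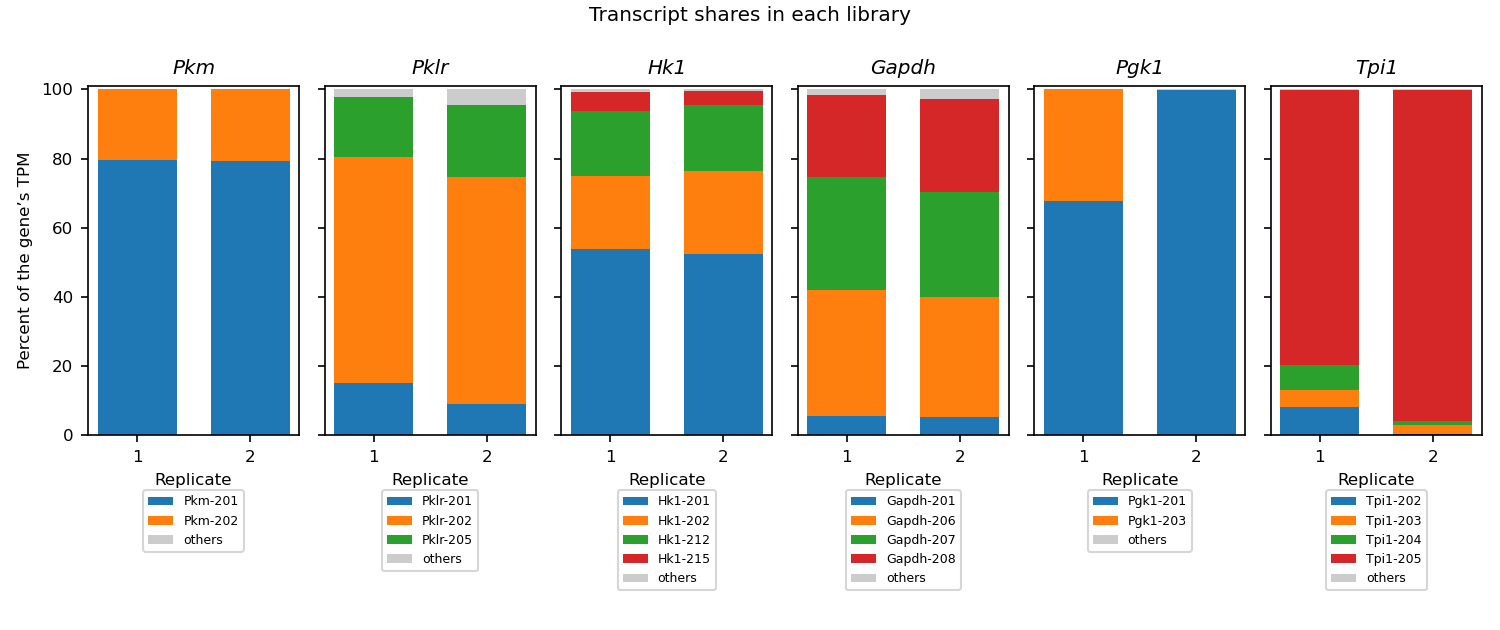
Percent of each gene's TPM assigned to its transcripts in replicates 1 and 2, for 6 genes; colours restart in each panel, and transcripts under 5% in both libraries are pooled as others. Pkm, Pklr, Hk1 and Gapdh show like divisions in the 2 libraries, while Pgk1-203 holds 32.4% in replicate 1 and 0% in replicate 2 and Tpi1-205 holds 79.7% and 95.7%.

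Lactate dehydrogenase regenerates NAD from NADH. Ldha, on chromosome 7 from 46841475 to 46855627, encodes the M subunit that is typical of muscle. It stood at 2375 TPM in replicate 1 and 2374 TPM in replicate 2, and Ldha-202 held 99.8% and 99.9% of it. Ldhb, which encodes the H subunit of heart and of human red cells, had 0 counts in both libraries, and so did Ldhc, the sperm isozyme. Against a floor of 3 counts per library, Ldha was at least 11645-fold and at least 10604-fold higher than Ldhb. Ldhc begins 5575 bases downstream of the end of Ldha on chromosome 7, so a gene at 2374 TPM and a gene with no count are direct neighbours among the 33. Likewise, 40912 bases on chromosome 6 separate Eno2, at 0.03 TPM, from Tpi1, at 2050 TPM. Ldhd, which acts on D-lactate, had 1.02 and 3.77 counts.

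Lactate leaves cells through monocarboxylate transporters. Slc16a1, which encodes MCT1, the form of red cells, stood at 22.4 TPM in replicate 1 and 24.9 TPM in replicate 2. Slc16a3, which encodes MCT4, the form of highly glycolytic cells, stood at 10.0 and 9.78 TPM. Slc16a1 exceeded Slc16a3 by 1.26 ± 0.13 on the log2 scale (SD, n = 2), by 2.00 with coding transcripts alone and by 2.44 at the reference length. Slc16a3-206, of 395 bases, held 39.8% and 33.03% of the Slc16a3 level from 23 and 17 counts, and coding transcripts alone leave it out. The reference length is that of Slc16a3-208, 4335 bases, while Slc16a3-202, of 2386 bases, held 49.0% and 57.4% of the counts. The part of each in the spread of the ratios was not tested. Slc16a3 was also the single gene of 23 with several transcripts whose leading transcript differed between the libraries, Slc16a3-206 in replicate 1 and Slc16a3-202 in replicate 2. The same share over all genes with several transcripts was not computed. Bsg, which encodes the chaperone basigin that brings MCT1 and MCT4 to the membrane, was far higher than both carriers, at 626 and 637 TPM. Emb, which encodes the chaperone embigin, and the carrier gene Slc16a7 had 0 counts, and Slc16a4 and Slc16a8 stayed under 1 TPM.

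Ranking the steps by the summed TPM of their isozymes put aldolase first at 4644 ± 252 TPM and glyceraldehyde-3-phosphate dehydrogenase second at 4381 ± 312 TPM (SD, n = 2). Pyruvate kinase followed at 2433 ± 170, lactate dehydrogenase at 2374 ± 0.566, triosephosphate isomerase at 2050 ± 145, phosphoglucose isomerase at 1773 ± 185 and enolase at 1323 ± 45.3 TPM. Phosphoglycerate kinase summed to 767 ± 89.5, hexokinase to 577 ± 22.7, phosphofructokinase to 563 ± 2.27, the glucose carriers to 538 ± 24.2 and phosphoglycerate mutase to 404 ± 16.4 TPM. The fructose-2,6-bisphosphate enzymes, at 61.9 ± 1.499, the lactate carriers, at 33.6 ± 1.64, and bisphosphoglycerate mutase, at 25.9 ± 2.28 TPM, came last. Neighbours in this order had values that did not overlap between libraries, with 3 exceptions: aldolase and glyceraldehyde-3-phosphate dehydrogenase, pyruvate kinase and lactate dehydrogenase, and hexokinase and phosphofructokinase were not separated. At the reference length, the order moved most for glyceraldehyde-3-phosphate dehydrogenase, which came sixth at 1695 ± 136 TPM, while aldolase stayed first at 4352 ± 188 TPM. With the copies of Eno1 added in proportion to the shared sequence, enolase rose to 2073 ± 98.7 TPM. On both scales the hexokinase and phosphofructokinase steps lay below each step from aldolase to phosphoglycerate kinase, and also below enolase, pyruvate kinase and lactate dehydrogenase.

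**Figure D4:**
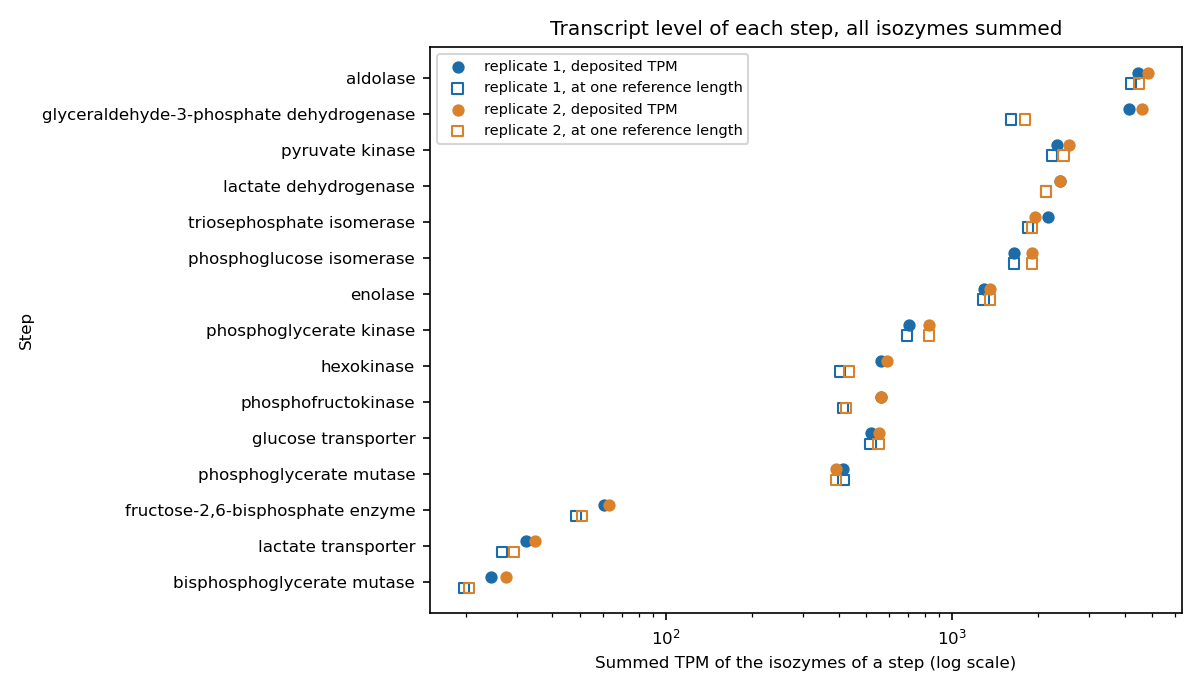
Summed TPM of the isozymes of each step on a log axis, for both libraries, as deposited (filled circles) and with counts divided by the effective length of the longest complete coding transcript of each gene (open squares). Most squares lie near the circles, while glyceraldehyde-3-phosphate dehydrogenase drops from 4381 to 1695 TPM.

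Of the 20 isozyme comparisons listed for these genes, 15 had the first-named gene higher in both libraries and 5 had it lower. The list set which gene is named first, so the split of 15 and 5 has no meaning of its own. In 6 of the 20 a gene had 0 counts, which fixed the side, and these are bounds against 3 counts. The first-named gene was lower for Pfkl and Pfkm against Pfkp, for Slc2a1 against Slc2a3 and for Pfkfb3 against Pfkfb4 and Pfkfb2. The isozymes known mainly from testis were at or near 0, with Pgk2 and Ldhc at 0 counts and Gapdhs at 1.64 ± 0.283 TPM. Tissue names did not order the other genes by level. Among genes named for muscle, Pgam2 stood at 3.20 ± 1.27 TPM and Aldoa at 4592 ± 245 TPM, and among genes known mainly from nerve or brain, Eno2 had 1 count per library and Slc2a3 stood at 295 ± 10.0 TPM. No step therefore lacked a detected gene, and the genes at 0 counts each had a detected isozyme for the same function.

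**Figure D5:**
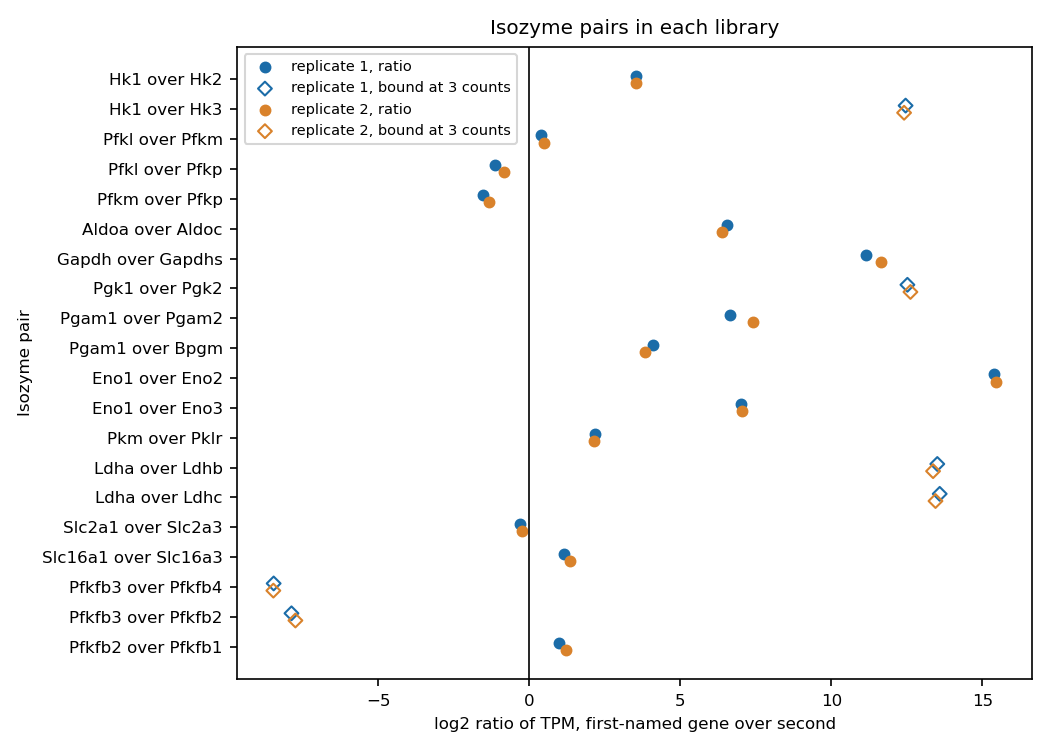
Log2 ratio of TPM for 20 isozyme comparisons in each library; filled circles are ratios and open diamonds are bounds with the undetected gene set to 3 counts. The line at 0 marks equal levels, 15 comparisons lie to its right and 5 to its left, and the 2 libraries fall on the same side in each.

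The replicates were close for these genes, as for most genes tested. After scaling by trimmed means (TMM), 0 of the 25 genes that averaged 50 counts or more were over 1.5-fold apart, beside 3.81% of the 9347 genes tested. Among 25 genes, 0 is near that share. Many of the 25 had far more than 50 counts, and the genes tested were not matched to them for level. The median absolute log2 difference was 0.1 over the 25 genes and 0.145 over all genes tested. The largest folds were 1.20 for Pgk1, 1.17 for Gpi1 and 1.17 for Aldoc. Among the members with fewer counts, Pgam2, with 53 and 27, differed 1.77-fold. No test is attached to these ratios, since each compares 1 library with 1 other.

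The surrounding metabolism was represented by 55 further genes, listed by function, of which 30 were detected and 4 passed 100 TPM. Among nuclear protein-coding genes these shares were 41.2% and 5.75%. For the entry of pyruvate into mitochondria 12 of 13 genes were detected. Pdk1, which encodes a kinase that shuts off pyruvate dehydrogenase, led them at 110 and 121 TPM, followed by Pdk2 at 72.0 and 82.2 TPM and the dehydrogenase subunit gene Dld at 44.6 and 33.7 TPM. Pdk4 had 0 counts. The pyruvate carrier genes Mpc1 and Mpc2 stood at 42.4 and 31.5 TPM and at 20.6 and 16.1 TPM. Set beside Ldha, which acts on the same pyruvate, Pdha1 and Pdhb of the dehydrogenase stood at 35.8 ± 2.15 and 37.4 ± 5.37 TPM (SD, n = 2).

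Of 7 genes of gluconeogenesis 3 were detected. Pcx, which encodes pyruvate carboxylase, stood at 139 and 154 TPM and Pck2, the mitochondrial phosphoenolpyruvate carboxykinase gene, at 6.83 and 7.08 TPM. Fbp1, Fbp2 and Pck1, which like G6pc encode enzymes of gluconeogenesis, had 0 counts. Of 7 side-branch genes 4 were detected, with Pgp, which encodes phosphoglycolate phosphatase, at 66.0 and 63.4 TPM, Minpp1 next and the mitochondrial glycerol-3-phosphate dehydrogenase gene Gpd2 at 17.6 and 17.3 TPM.

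Of 11 regulators that respond to oxygen or glucose 8 were detected. Txnip, which encodes a glucose-induced inhibitor of glucose uptake, stood at 114 and 128 TPM. Arnt and Egln2, a partner of the hypoxia-inducible factors and a prolyl hydroxylase that marks them for decay, stood at 53.9 and 58.1 TPM and at 53.4 and 56.2 TPM. Hif1a stood at 20.1 and 18.5 TPM, while Epas1, which encodes HIF-2 alpha, had 1 and 0 counts and Egln3 had 0 in both.

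Promoter letters were compared because GATA and CACCC motifs are common in erythroid promoters and the ACGTG core belongs to the site of hypoxia-inducible factors. RefSeq promoters of GRCm38.p6 were present for 32 of the 33 genes, as 52 start sites, and the 250 bases upstream of each were searched on both strands, overlapping matches included. AGATAA or TGATAA occurred in 11 of the 52, or 21.2%, beside 16.6% of 32851 promoters in all. CCNCNCCC occurred in 36, or 69.2%, beside 45.9% of all promoters. ACGTG occurred in 17, or 32.7%, beside 16.6% of all promoters, and its 13 genes included Slc2a1, Hk2, Pgk1, Pgam1 and Ldha, a start site of which held 5 matches. Hk3 and Pfkfb3, at 0 counts, were among the 13 as well. Several genes have more than 1 start site, and some of these stretches share bases, as for Aldoa and Eno1, so the 52 are not independent.

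The 2 start sites of Pklr are shown since they stand before the R and the L exon described above. The bases upstream of the R start are chr3:89135892-89136141 and those upstream of the L start, cut so that they hold no base of the annotated transcript, are chr3:89136373-89136571. Both are from RefSeq, plus strand, 5′ to 3′, and capitals mark a match to AGATAA or TGATAA.
Pklr upstream start: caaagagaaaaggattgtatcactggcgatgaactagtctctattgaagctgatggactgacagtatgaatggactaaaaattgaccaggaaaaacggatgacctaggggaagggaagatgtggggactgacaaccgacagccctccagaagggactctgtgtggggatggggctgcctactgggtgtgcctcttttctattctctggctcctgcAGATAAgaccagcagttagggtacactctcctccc
Pklr downstream start: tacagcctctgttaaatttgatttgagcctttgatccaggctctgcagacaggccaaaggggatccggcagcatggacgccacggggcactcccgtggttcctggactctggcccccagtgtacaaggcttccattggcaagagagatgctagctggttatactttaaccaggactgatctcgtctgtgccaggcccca
The upstream stretch held 1 GATA match, 30 bases before the start site, and the downstream stretch held 0. Neither held a match to CCNCNCCC or ACGTG. A match describes these letters and does not show that a factor bound there.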

How the data were processed

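Polyadenylated RNA of 2 libraries of G1E-ER4 cells was sequenced, and both form 1 group. Per the file headers, the authors deposited for each gene and transcript an expected count, a TPM value that sums to 1000000 per library, and a posterior mean TPM, which contains a prior and was treated as a score. In the transcript tables the authors also deposited, per the file headers, what percent of its gene's TPM a transcript holds and a posterior SD of its count. Per the deposited manifests, the annotation was GENCODE M4 on mm10. Which aligner and which quantifier were run is not given in the sources used here. Lengths and effective lengths differ as 36-base reads would give.

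From these tables, symbols, classes and positions were taken by Ensembl identifier from GENCODE M21, built on that assembly. Detection was 1 TPM or more in both libraries, and a high level a mean of 100 TPM or more. Ratios were formed in each library, with 3 counts in place of 0, and are given as mean and SD. Eno2, with 1 count, has an exact Clopper-Pearson interval of 95% in place of a bound. Transcript shares were compared for genes with at least 20 counts. For sharing, every 36-base sequence of a gene's M21 transcripts was looked up in all other transcripts on both strands, and genes with at least 10% of theirs in common were listed. Expected counts were rounded and scaled by TMM in edgeR 4.0.16 (R 4.3.3) for the replicate folds. Size factors of DESeq2 1.42.0 were an alternative. The fold computation was also run on simulated counts, in which the changed genes moved by more than the 1.5-fold cut. That run does not show how well a difference near 1.5-fold would be found. Other computations used Python 3.11.15.

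Depth was 20412826 and 18564086 expected counts. With 1 group, no comparison between conditions could be tested. The 33 genes, the comparisons and the gene lists were chosen with earlier results of these data known. Genes were named by rule: each of the 33 genes, up to 3 of the most abundant and those at 0 counts in each further group, and transcripts with at least 10% of a gene. Others named (Tpi1-202 to Tpi1-204, Hk1-205, Pfkfb2 and Slc16a3 transcripts, Slc2a2, Slc2a4, Tigar, Mpc1, Mpc2, Pdha1, Pdhb, Hif1a, Epas1, Ldhd and sharing genes) were chosen after their values were seen. The division by a reference length, and copies added without a minimum share, were chosen after seeing the data. Values of some genes in the further lists are not reported here.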

Additional observations from a re-analysis of the deposited data

How the results depend on the processing

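The count of 27 detected genes moved between 25 at 5 TPM or more and 29 with posterior mean TPM, in which genes without a read hold values above 0. It was 28 with any count accepted. The count of 16 genes at 100 TPM or more did not move under posterior mean TPM, coding transcripts alone, the reference length or with either library left out. The median of 52.1 TPM moved to 38.9 with coding transcripts alone, to 36.1 at the reference length and to 243 over the detected genes alone, a set with fewer genes by construction. With either library left out it ranged from 47.4 to 56.9. The count of 15 comparisons with the first-named gene higher was 15 under all 8 alternatives run, and no mean log2 ratio changed sign. Among ratios with a gene near 0, with posterior mean TPM Eno1 over Eno2 moved from 15.42 to 9.94, Hk1 over Hk3 from 12.44 to 9.93, Pfkfb3 over Pfkfb4 from -8.47 to -4.76 and Pfkfb3 over Pfkfb2 from -7.82 to -4.15. Another setting added the TPM of every gene that shares any 36-base sequence, in proportion to the shared part. With it Eno1 over Eno2 was 5.48, Pfkfb3 over Pfkfb4 -3.05 and Pfkfb3 over Pfkfb2 -2.94. Eno2 and Pfkfb3 have 99.3% and 99.5% of their 36-base sequences in no other gene, so these values do not show expressed copies. Eno1 over Eno3 rose from 7.03 to 7.68 with copies added, and Pgam1 over Pgam2 from 7.03 to 8.19 from counts. Over 1.5-fold between replicates, the count of 0 became 1 (Pgam2) without the filter on low counts, where 21.1% of genes passed, and was 0 with DESeq2 size factors, with the TPM ratio and at 2-fold. The count of 22 genes with the same leading transcript was 22 by share of counts and 21 with at least 100 counts. No share over all genes was computed to set beside it. No paired analysis was possible because the libraries form 1 group. Depth limits the genes at 0 counts, whose ratios are bounds, and 36-base reads limit the division between transcripts and between copies.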
